A study of Mus musculus with 24 samples.

Results

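The comparison described here sets day 7 embryonic bodies against both of their neighbours in a mouse differentiation culture. For every gene the mean of the 2 embryonic body arrays was set against the average of the ES cell mean and the cardiac body mean, 2 arrays each, so 6 of the 12 gene-level arrays of the series enter the comparison. A gene was kept only where the embryonic bodies lay on the same side of both neighbours, which picks out genes that peaked or dipped in passing at day 7 and leaves out genes that rose or fell steadily. The ES cells were undifferentiated and labelled day 0, and the embryonic bodies day 7 and the cardiac bodies day 14 of a serum-containing culture that turns mouse ES cells into cardiomyocytes. The other 6 arrays hold whole hearts, 2 each at embryonic stage E17.5, at postnatal day 1 and in adults, and are used below as a readout that the comparison did not use. Neither the ES cell line nor a genotype is labelled, and no label gives the origin of the replicates, so p-values measure only the spread between these arrays, which may be technical.

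Embryonic bodies are aggregates of ES cells that, once the factors holding them in the pluripotent state are withdrawn, pass through a rough version of gastrulation. Cells leave the network kept up by the transcription factors Pou5f1, Nanog and Sox2, and give rise to mesoderm, endoderm and ectoderm. Mesoderm in turn yields endothelium, primitive blood and cardiac progenitors, and beating cardiomyocytes appear later. Signals of the Nodal, FGF, BMP and Wnt families direct these choices in the embryo as well as in culture.

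Array medians of the deposited log2 values lay between 5.62 and 5.76 over the 12 arrays. The 2 arrays of a group correlated across genes at 0.993 for ES cells, 0.983 for embryonic bodies and 0.990 for cardiac bodies. The embryonic body arrays were thus the least alike of the culture arrays. They differed from each other by more than 1 on the log2 scale in 548 of 19920 genes, against 48 genes for the ES cell arrays and 144 for the cardiac body arrays. This spread touches several of the gene groups below, and its values are given there.

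Of the 19920 genes tested, 2120 peaked in the embryonic bodies, which is 10.6%, and 1477 dipped, which is 7.41% (limma, Benjamini-Hochberg adjusted p under 0.05 for the contrast, both single differences of the same sign). The contrast was also called in 128 genes whose neighbours lay on either side of the embryonic bodies, and these are no peaks or dips. A gene can pass with 1 large and 1 small difference, so a stricter class was used that also needed both single differences to be called. The strict class held 1029 peaks (5.17%) and 536 dips (2.69%). Among the other 1091 peaks the difference from ES cells alone was called in 797 and the difference from cardiac bodies alone in 173. Among the other 941 dips the numbers were 660 and 234.

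The strict counts moved most with the cardiac body arrays. They were 513 peaks and 367 dips without cardiac bodies replicate 1, and 551 peaks and 334 dips without cardiac bodies replicate 2. Leaving out embryonic bodies replicate 1 lowered all dips from 1477 to 900.

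Both differences were at least 1 in 528 of the strict peaks and 290 of the strict dips, and at least 3 in 24 peaks and 10 dips. In 854 of the 1029 strict peaks the cardiac bodies did not pass the test against ES cells, while in 169 they were higher than ES cells and in 6 lower. Of the strict dips 384 did not pass that test, 131 were lower in cardiac bodies than in ES cells and 21 were higher. The median difference between cardiac bodies and ES cells was 0.18 over the strict peaks and -0.31 over the strict dips, beside -0.05 over all genes.

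**Figure D1:**
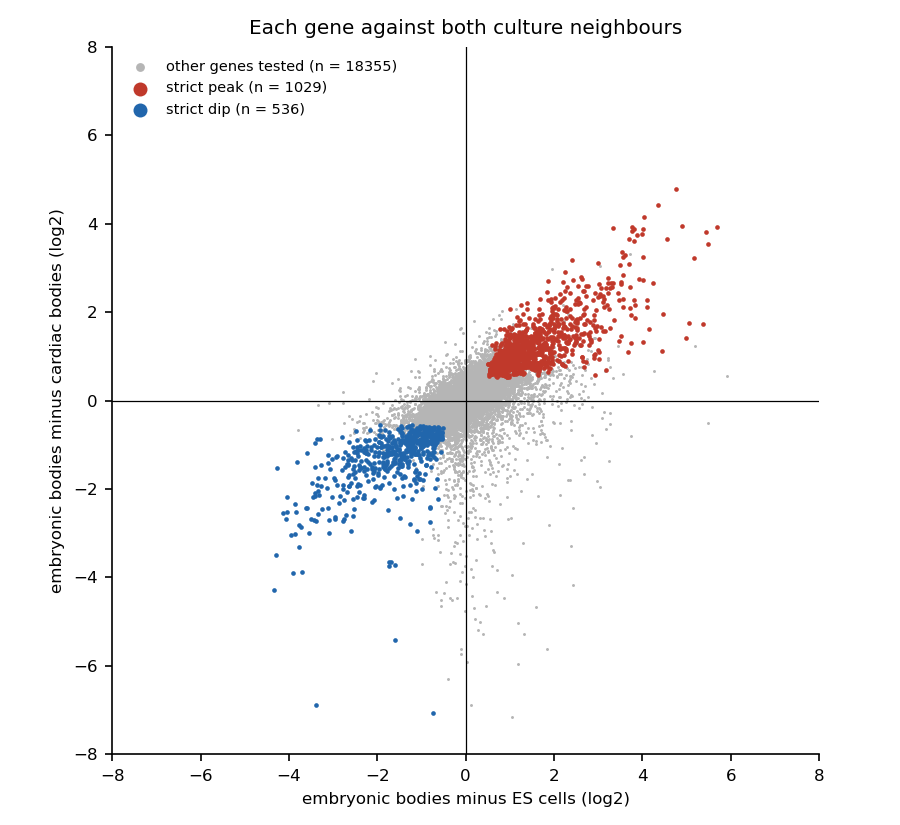
Difference between embryonic bodies and ES cells (horizontal, log2) against the difference between embryonic bodies and cardiac bodies (vertical, log2), 1 point per gene. The 1029 strict peaks (red) fill the upper right and the 536 strict dips (blue) the lower left; the grey points far below the horizontal line near the middle are genes higher in cardiac bodies than in the other culture groups. Both axes share the embryonic body arrays, so the slope of the cloud is no result.

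The 12 genes that stood furthest above both neighbours joined keratins, matrix genes and embryonic globins. Krt8 and Krt18 pair into the keratin filaments of simple epithelia. Krt18 read 6.78 and 6.26 in the ES cell arrays, 11.57 and 11.28 in the embryonic body arrays, and 7.29 and 7.68 in the cardiac body arrays. Krt8 read 8.10 and 8.06, then 12.27 and 11.85, then 8.17 and 8.42. The embryonic body arrays of both genes were far above all 4 neighbours, by 4.42 ± 0.21 (SE) for Krt18 and 3.87 ± 0.16 for Krt8 against the mean of the neighbours (limma adjusted p 2.84e-07 and 1.52e-07). Krt19, a further keratin of simple epithelia, rose by 3.79 ± 0.31 (limma adjusted p 5.88e-06).

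Has2, which makes the matrix polysaccharide hyaluronan, read 5.10 and 4.57 in ES cells, 9.96 and 11.06 in embryonic bodies and 6.31 and 6.87 in cardiac bodies. Its difference from the neighbours was 4.80 ± 0.29 (limma adjusted p 5.35e-07). Hapln1, a protein that links hyaluronan to proteoglycans, read 3.63 and 3.53, then 6.54 and 8.39, then 3.87 and 3.57. Of the embryonic body arrays the second was the higher for each of these matrix genes. Cxcr4, the chemokine receptor carried by migrating mesoderm and endoderm, followed the same order at 8.93 and 10.08 in embryonic bodies, against 5.47 to 5.74 in the other 4 culture arrays. Nnat, an imprinted proteolipid gene, stood at 9.61 and 10.39 against 5.90 to 6.32 in the other culture arrays.

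Cpm, a membrane carboxypeptidase, read 9.58 and 7.66 in embryonic bodies and between 4.27 and 4.65 in the other culture arrays. Zfp711, a zinc finger gene of the X chromosome, read 9.21 and 7.24 against 4.10 to 4.48 in the other culture arrays. Fndc3c1, also X-linked, was even at 9.10 and 8.92 against 3.42 to 5.55 in the other culture arrays. That the embryonic body arrays of these genes did not overlap with the other culture arrays was a condition of the ranking.

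The embryonic globins Hbb-bh1 and Hbb-y ranked first, and rest largely on a single array. Hbb-bh1 read 11.07 in embryonic bodies replicate 1 and 5.29 in replicate 2, and between 3.20 and 3.60 in the other culture arrays. Hbb-y read 11.32 and 5.88 against 4.09 to 4.27 in the other culture arrays. The embryonic body replicates, above all neighbours by the condition of the ranking, differed from each other by 5.78 for Hbb-bh1 and 5.44 for Hbb-y. The contrast was 4.77 ± 1.03 for Hbb-bh1 (limma adjusted p 0.00578) and 4.38 ± 1.02 for Hbb-y (limma adjusted p 0.00923). Without replicate 1 it was 1.88 for Hbb-bh1 and 1.66 for Hbb-y. That fit holds 1 embryonic body array and so no spread within the group.

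**Figure D2:**
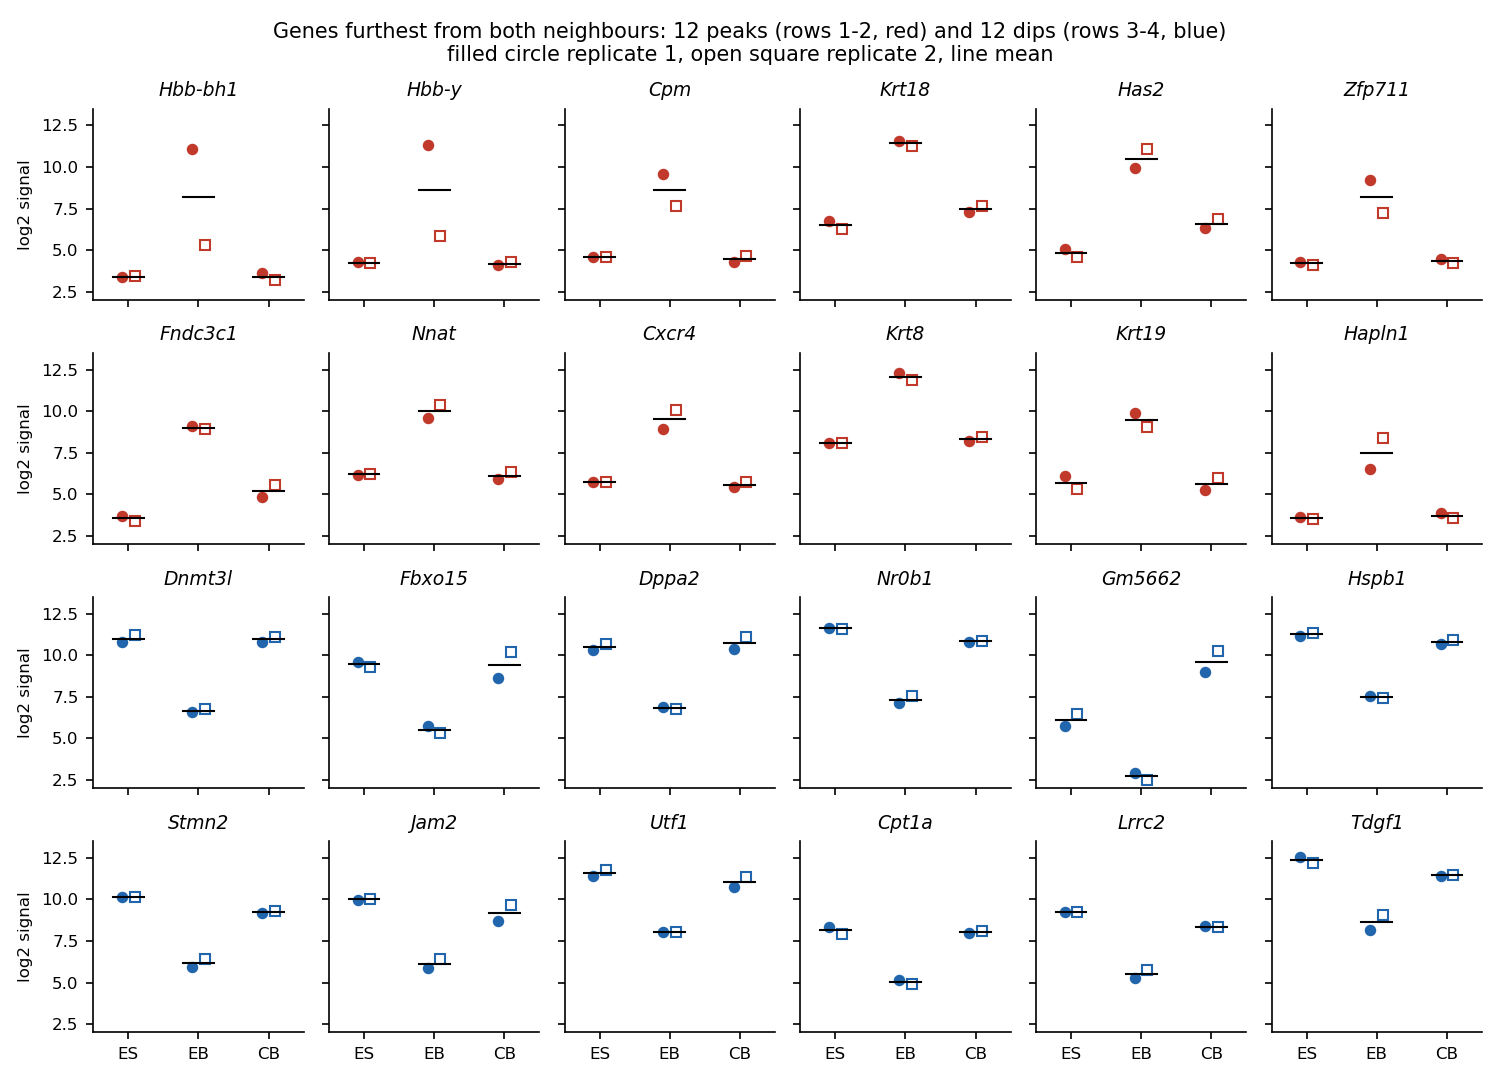
Log2 signal of the 12 genes furthest above (red) and the 12 furthest below (blue) both neighbours, by group (ES, ES cells; EB, embryonic bodies; CB, cardiac bodies). Filled circles are replicate 1, open squares replicate 2 and lines the mean of 2. In each dip the embryonic body arrays differ by less than 1, while the cardiac body arrays differ by more for Fbxo15 (8.64 and 10.22) and Gm5662 (8.97 and 10.25). Hbb-bh1 and Hbb-y have 1 embryonic body array near 11 and the other between 5 and 6.

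The dips were led by genes of the pluripotent state. Of the 35 measured genes of a pluripotency list, 30 dipped and 26 dipped strictly, against 2.69% of all genes, and none peaked. Leaving out any single culture array left between 20 and 26 strict dips. Averaged over the list, the log2 level was 9.66 and 9.75 in the ES cell arrays, 7.16 and 7.11 in the embryonic body arrays and 8.78 and 9.07 in the cardiac body arrays. The cardiac bodies thus stood nearer to the ES cells than the embryonic bodies did. In bulk RNA, fewer cells of a type and less RNA per cell cannot be told apart.

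Pou5f1, the octamer-binding factor at the centre of the network, read 11.83 in both ES cell arrays, 8.46 and 8.52 in embryonic bodies, and 11.03 and 11.11 in cardiac bodies. Its contrast was -2.96 ± 0.17 (limma adjusted p 5.15e-07). Nanog, the homeodomain factor of naive pluripotency, read 11.73 and 11.80, then 8.71 and 8.33, then 10.90 and 11.03. Sox2, the partner of Pou5f1, dipped less, at 10.33 and 10.42, then 7.88 and 8.69, then 9.51 and 10.34. In each of the 3 genes both embryonic body arrays lay below all neighbours, as in all 536 strict dips.

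Dnmt3l, a cofactor of de novo DNA methylation, led the dips when ranked by the smaller of the 2 differences. It read 10.77 and 11.22 in ES cells, 6.59 and 6.74 in embryonic bodies and 10.79 and 11.11 in cardiac bodies, a contrast of -4.30 ± 0.29 (limma adjusted p 1.11e-06). The difference between cardiac bodies and ES cells did not pass the test, at -0.05 ± 0.33 (limma adjusted p 0.97). The ES cell markers Fbxo15, Dppa2, Nr0b1, Utf1 and Tdgf1 had contrasts of -3.91, -3.79, -3.89, -3.28 and -3.30. Klf4, a factor of naive pluripotency, fell from 8.89 and 8.74 to 6.49 and 6.53 but read only 7.00 and 7.36 in cardiac bodies, and its difference from those was not called (limma adjusted p 0.16).

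Not every gene of the list took part. Lin28a, an RNA-binding protein that blocks let-7 maturation, read 9.37 and 9.60, then 9.81 and 9.59, then 9.23 and 9.26. Trim71 and Sall4 did not pass the test. Tbx3 was split between the embryonic body arrays at 8.51 and 6.08.

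Among the 12 deepest dips outside that list, Hspb1, a small heat shock protein, read 11.16 and 11.37, then 7.53 and 7.44, then 10.66 and 10.92. Cpt1a, which admits long-chain fatty acids to mitochondria, read 8.31 and 7.94, then 5.16 and 4.92, then 7.97 and 8.12. Jam2, an adhesion molecule of cell junctions, and Stmn2, a regulator of microtubules, had contrasts of -3.45 ± 0.25 and -3.50 ± 0.18. Gm5662 was lowest in the embryonic bodies at 2.93 and 2.50 and highest in the cardiac bodies at 8.97 and 10.25, with ES cells at 5.72 and 6.49.

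Because Pou5f1 binds an octamer whose first letters are ATGCAAA, the 250 bases upstream of RefSeq gene starts were searched for these letters on both strands, with the start sites and the build (GRCm38.p6) as RefSeq gives them. These letters were present in 687 of 15614 tested genes with a window (4.40%), in 28 of 435 strict dips (6.44%) and in 23 of 774 strict peaks (2.97%). Of the 20 pluripotency genes that dipped strictly and had a window, 4 held it. These were Nanog, Sox2, Zfp296 and Zfp42. A match is a description and not a bound site. The windows of Nanog (chr6:122707239-122707488, plus strand, upstream of the first of its annotated starts) and Zfp42 (chr8:43307010-43307259, minus strand) are shown because these genes dipped with Pou5f1, with these letters or their reverse complement in capitals.
Nanog: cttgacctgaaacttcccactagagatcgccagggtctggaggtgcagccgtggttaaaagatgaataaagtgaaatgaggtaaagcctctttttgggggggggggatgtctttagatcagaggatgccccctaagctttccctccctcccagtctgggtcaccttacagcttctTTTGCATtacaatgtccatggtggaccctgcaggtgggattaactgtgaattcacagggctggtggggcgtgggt
Zfp42: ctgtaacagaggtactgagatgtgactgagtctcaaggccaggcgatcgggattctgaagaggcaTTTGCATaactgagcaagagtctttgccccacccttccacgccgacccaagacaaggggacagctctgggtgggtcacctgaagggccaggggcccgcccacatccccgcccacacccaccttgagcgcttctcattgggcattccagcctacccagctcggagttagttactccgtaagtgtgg
The match lies 75 bases before the Nanog start and 185 bases before the Zfp42 start. Zfp42, a zinc finger marker of ES cells also called Rex1, read 10.31 and 10.61 in ES cells, 6.42 and 6.41 in embryonic bodies and 8.95 in both cardiac body arrays.

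In the Nodal list 5 of 15 measured genes dipped strictly, against 2.69% of all genes, of which Gdf3 and Tdgf1 are also on the pluripotency list. Nodal itself read 8.92 and 9.14, then 6.92 and 7.00, then 8.74 and 9.67, a contrast of -2.15 ± 0.29 (limma adjusted p 0.000238). Its inhibitor Lefty1 fell to 5.86 and 6.03 between levels of 7.21 to 7.78 in ES cells and 7.97 to 8.34 in cardiac bodies. The related ligand Gdf3, the coreceptor Tdgf1 and the processing protease Pcsk6 were the other strict dips. The signal transducer Smad3 was the 1 strict peak of the list, at 6.75 and 6.60, then 8.41 and 8.60, then 7.22 and 6.97.

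In the FGF list 5 of 22 genes dipped strictly and 6 peaked strictly, against 2.69% and 5.17% of all genes. Leaving out any 1 of the ES cell or cardiac body arrays gave 3 strict peaks and 4 strict dips. The dips were the ligand Fgf4, also on the pluripotency list, the ETS factors Etv4 and Etv5, and the feedback inhibitors Spry2 and Spry4. Fgf4 read 8.73 and 8.71, then 5.88 and 6.19, then 8.09 and 8.13. Spry4 read 9.80 and 9.75, then 7.14 and 7.40, then 8.62 and 9.14. The peaks included the receptors Fgfr1 and Fgfr2 and the mesodermal ligand Fgf10. Fgfr2 read 5.48 and 5.54, then 8.10 and 7.51, then 6.05 and 6.31.

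The BMP and TGF-beta list moved upward. Of 33 measured genes 17 peaked, 12 of them strictly, and none dipped, beside 10.6% peaks among all genes. Without cardiac bodies replicate 1 or 2 the strict peaks were 8 and 7. The ligands Bmp5, Bmp2 and Tgfb2, the receptors Tgfbr1, Tgfbr3, Bmpr2 and Acvrl1 and the transducers Smad1 and Smad5 were among the strict peaks. Bmp5 read 5.10 and 4.14 in ES cells, 9.41 and 8.75 in embryonic bodies and 7.73 and 6.51 in cardiac bodies, a contrast of 3.21 ± 0.36 (limma adjusted p 6.28e-05). Id3, a target of BMP signalling, read 6.74 and 7.28, then 9.41 and 9.23, then 7.98 and 7.72. The ligand Bmp4 did not pass the test and was split between the embryonic body arrays at 9.47 and 7.75.

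Of 40 Wnt pathway genes 7 peaked strictly, against 5.17% of all genes, and 5 dipped, against 7.41%, 1 of them strictly. Without cardiac bodies replicate 2 the strict peaks were 4, against 2.77% of all genes. The secreted inhibitors Frzb and Dkk1 peaked together with the ligand Wnt5a and the receptors Fzd2 and Fzd4. Frzb read 4.71 and 5.03, then 8.34 and 8.53, then 5.65 and 4.72. Among 21 hedgehog and retinoic acid genes 7 peaked strictly, against 5.17% of all genes. Cyp26a1, which degrades retinoic acid, read 4.83 and 4.53, then 7.65 and 9.36, then 4.40 and 5.36. The hedgehog receptor Ptch1, the transducer Smo and the factor Gli3 peaked by 1.81, 1.47 and 1.57, while the retinoic acid receptor Rarg fell by 1.45.

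**Figure D3:**
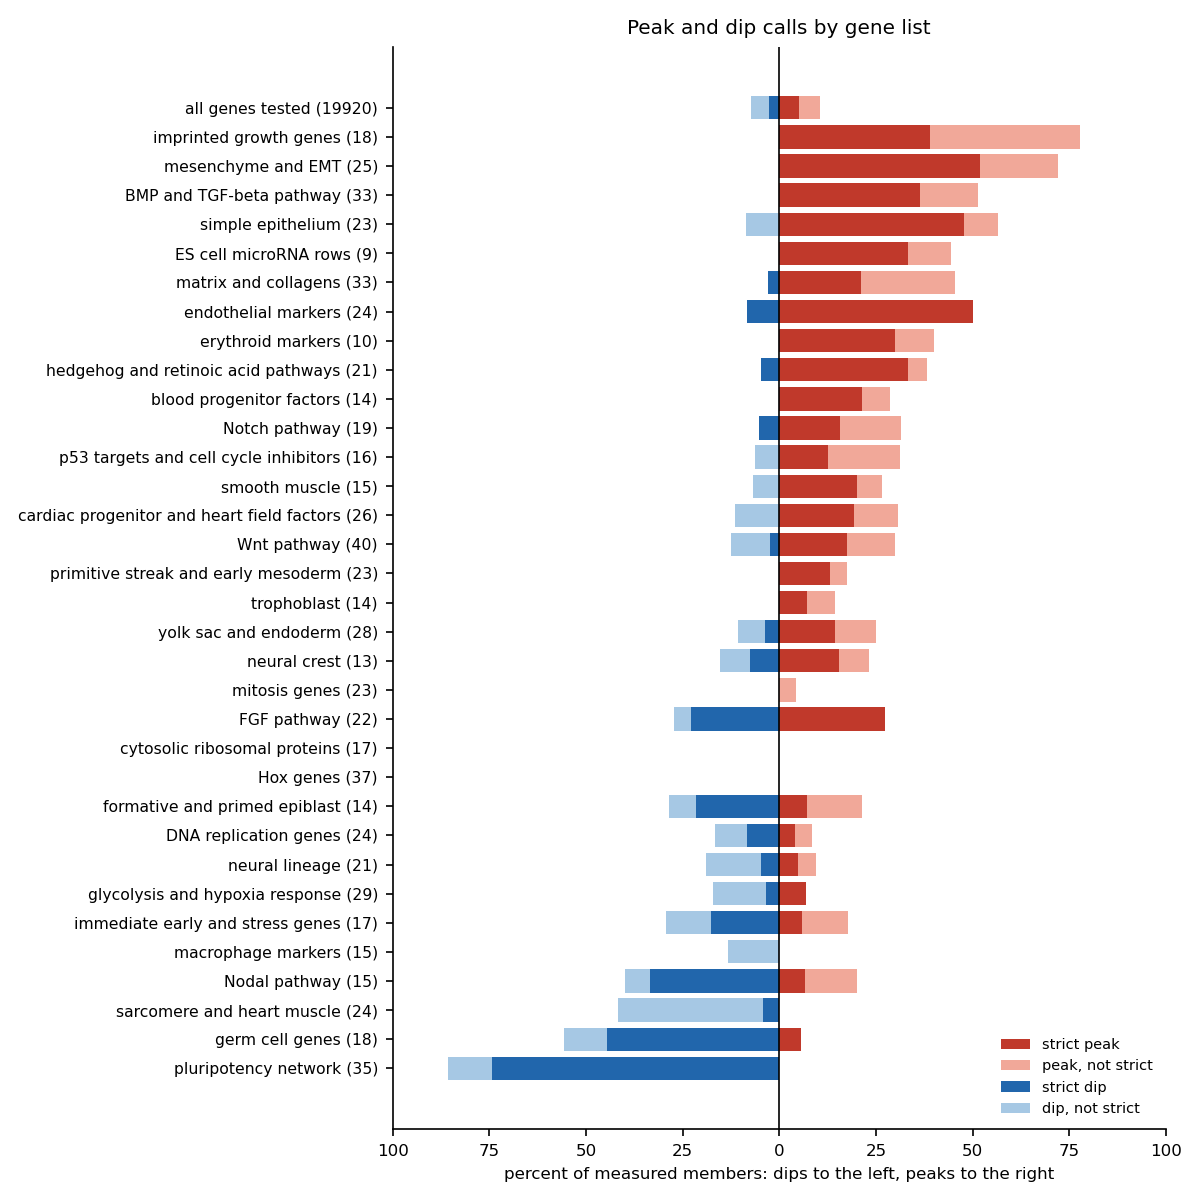
Share of the measured members of each gene list (number in brackets) that peaked (right, red) or dipped (left, blue) in embryonic bodies, with strict calls in the darker shade and all genes tested in the top bar. The pluripotency and germ cell lists lie to the left and the imprinted, mesenchyme and BMP and TGF-beta lists to the right; Hox and ribosomal protein genes have no call.

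Of 23 simple epithelium genes 11 peaked strictly, against 5.17% of all genes. Another 2 dipped, against 7.41% of all genes, neither of them strictly. Of 25 mesenchyme genes 13 peaked strictly, against 5.17% of all genes, and none dipped. Beside the keratins the epithelial strict peaks included the junction genes Cldn6 and Cldn7. Cldn6, a tight junction claudin of embryonic epithelia, read 7.56 and 7.53, then 10.76 and 10.99, then 7.02 and 6.93, with a contrast of 3.61 ± 0.18 (limma adjusted p 3.11e-07). Cldn7 peaked by 2.69 ± 0.17. Epcam, an adhesion molecule of ES cells and epithelia, did not pass the test, at 9.15 and 9.30, then 9.18 and 8.91, then 7.68 and 8.66.

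Cdh11, a cadherin of mesenchymal cells, read 4.36 and 4.93 in ES cells, 10.06 and 9.54 in embryonic bodies and 5.80 and 7.34 in cardiac bodies, a contrast of 4.19 ± 0.39 (limma adjusted p 1.58e-05). Snai2, a repressor active in epithelial to mesenchymal transition, read 4.17 and 4.58, then 8.41 and 6.87, then 4.64 and 5.54. The receptor Pdgfrb stood at 8.41 and 7.73 against 5.45 to 5.86 in the other culture arrays. In 9 of the 25 mesenchyme genes embryonic bodies replicate 1 exceeded replicate 2 by more than 1, and in 3 the reverse held. The strict count of the list moved when an embryonic body array or a cardiac body array was left out. It was lowest without 1 of the cardiac body arrays.

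Endothelial genes made the next group. Of 24 measured endothelial markers 12 peaked strictly, against 5.17% of all genes. Leaving out any culture array gave 10 to 13, against 2.58% to 4.19% of all genes. Kdr, the VEGF receptor of haemangioblasts and endothelium, read 4.39 and 4.84, then 7.91 and 8.71, then 5.15 and 5.30, with a contrast of 3.39 ± 0.22 (limma adjusted p 1.1e-06). Cdh5, the endothelial cadherin, read 4.27 and 4.29, then 6.87 and 7.82, then 4.90 and 4.71. Flt1, Tek and Tie1, further receptors of the endothelium, and the transcription factors Erg, Fli1 and Sox17 were also strict peaks. Emcn, an endothelial sialomucin, rested more on a single array, at 5.14 and 8.02 in embryonic bodies and 3.44 to 3.71 in the other culture arrays. Replicate 2 exceeded replicate 1 by more than 1 in 7 of the 24 genes, and no gene showed the reverse.

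A pair of endothelial list members dipped. Pecam1, an adhesion molecule of endothelium that ES cells also carry, read 7.91 and 7.90, then 6.63 and 6.31, then 7.53 and 8.30. Robo4 read 6.23 and 6.46, then 5.05 and 5.63, then 6.36 and 6.45. The regulator of haemangioblast fate Etv2 did not pass the test, at 5.52 and 6.26 in embryonic bodies and 5.40 to 5.53 in the other culture arrays.

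Among the culture arrays, erythroid genes were on average highest in embryonic bodies replicate 1. Of 10 erythroid markers 3 peaked strictly, against 5.17% of all genes, and 8 were higher in replicate 1 by more than 1, against 1.60% of all genes. Alas2, the first enzyme of haem synthesis in red cells, read 8.71 and 5.85 in embryonic bodies and 4.80 to 5.10 in the other culture arrays. Hba-x, the embryonic alpha-type globin, read 11.32 and 6.19 against 4.88 to 5.62 in the other culture arrays. Strict peaks numbered 1 without replicate 1, 7 without replicate 2, and 0 without any 1 of the ES cell or cardiac body arrays, where 3 or 4 genes still peaked by the weaker rule. Globin genes resemble each other and can share probes. Among 14 blood progenitor factors Runx1, Lmo2 and Cd44 peaked strictly, against 5.17% strict peaks among all genes. Lmo2 was even between the replicates at 8.36 and 8.47. In 4 of the 14 replicate 1 was higher by more than 1, against 1.60% of all genes, and in none the reverse. Runx1 and Cd44 were higher in replicate 1. Runx1 read 6.99 and 6.24 in embryonic bodies, against 5.38 to 5.75 in the other culture arrays. Cd44 read 7.82 and 6.75, against 5.04 to 5.69. The contrasts of Runx1, Lmo2 and Cd44 were 1.09, 1.33 and 1.98, and without replicate 1 they were 0.71, 1.38 and 1.44. The strict count of the list changed when single arrays were left out. Tal1 did not pass the test, at 6.64 and 6.05 against 5.78 to 5.94 in the other culture arrays.

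The embryonic body arrays also disagreed in position and extraembryonic genes. None of 37 Hox genes was called, against 10.6% peaks and 7.41% dips among all genes. In 11 of them replicate 1 exceeded replicate 2 by more than 1, and 7 of these 11 were among the 9 measured genes of the Hoxc cluster. Without replicate 2, 10 Hox genes were strict peaks. Named after their values were seen, Hoxc8 read 7.38 in replicate 1 and 4.81 in replicate 2, with the other culture arrays between 4.55 and 4.86, and Ttr, the thyroid hormone carrier of visceral endoderm and liver, read 10.44 and 5.87, with 4.67 and 4.53 in ES cells and 7.41 and 7.68 in cardiac bodies. Hand1, a factor of heart, extraembryonic mesoderm and trophoblast, read 8.59 and 6.17 against 5.71 to 6.30 in the other culture arrays and was not called (limma adjusted p 0.0647). Over all genes replicate 1 was higher by more than 1 in 318 and replicate 2 in 230. What lay behind the difference between the 2 arrays was not tested.

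**Figure D4:**
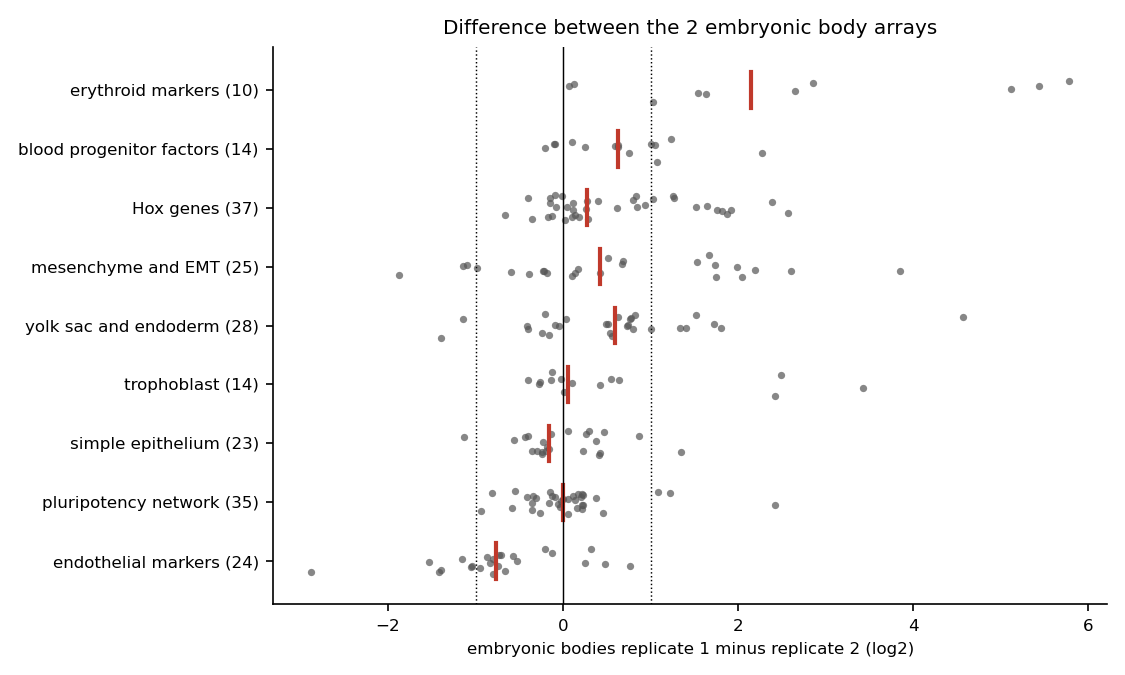
Embryonic bodies replicate 1 minus replicate 2 (log2) for each measured member of 9 gene lists (number in brackets); red lines are medians and dotted lines mark a difference of 1. Erythroid markers spread to the right (median 2.14) and endothelial markers to the left (median -0.77), while pluripotency genes centre on 0.00.

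The primitive streak is the site where mesoderm first forms. Of 23 measured markers 4 peaked (10.6% of all genes) and 3 peaked strictly (5.17% of all genes). In 8 both embryonic body arrays lay above all 4 neighbours (18.4% of all genes), and in 3 below all 4 (15.9% of all genes). The strict peaks were Aplnr, Foxa2 and Lhx1, against 6 without embryonic bodies replicate 2 and 1 without ES cells replicate 1, ES cells replicate 2 or cardiac bodies replicate 2. Aplnr, the apelin receptor of mesoderm, read 7.49 and 6.52 in embryonic bodies and 4.29 to 5.23 in the other culture arrays. Mesp1 and Mixl1, early mesoderm factors, read 4.48 and 4.72, and 5.61 and 5.22, in embryonic bodies, and neither passed the test (limma adjusted p 0.79 and 0.44). Eomes was also not called for the contrast, though it was higher than in ES cells by 0.75 (limma adjusted p 0.0275).

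Among 26 cardiac progenitor factors 5 peaked strictly, against 5.17% of all genes. Without cardiac bodies replicate 1 or replicate 2 the strict peaks were 2 in each fit, against 2.58% and 2.77% of all genes. Isl1, the factor of the second heart field, read 4.83 and 5.10, then 7.69 and 8.73, then 6.13 and 6.14, a contrast of 2.66 ± 0.23 (limma adjusted p 9.27e-06). Meis2 and Fgf10 followed it, with 8.34 and 8.98, and 6.17 and 6.50, in embryonic bodies. Foxc1 was uneven at 5.93 and 8.63. Nkx2-5, which marks committed cardiac cells, was not a peak. It read 7.14 and 7.19, then 7.21 and 7.01, then 8.89 and 8.22, so its call as a dip came from the cardiac bodies alone. Gata4 read 6.03 and 5.77, then 8.19 and 7.09, then 8.15 and 7.86, with the embryonic bodies above ES cells and level with cardiac bodies within the spread.

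Among the culture groups, sarcomere genes were high in cardiac bodies. Averaged over the 24 measured genes, the log2 level was 5.76 and 5.71 in ES cells, 6.17 and 6.57 in embryonic bodies and 10.72 and 10.34 in cardiac bodies. Of these genes 10 counted as dips, against 7.41% of all genes. Another 10 had the contrast called with the neighbours on either side, against 0.643% of all genes. Only Myl2 was a strict dip, at 5.37 and 5.77, then 4.75 and 4.93, then 12.16 and 11.67. Myh6, a cardiac myosin heavy chain, fell just outside the rule, with embryonic bodies 0.11 above ES cells and 6.89 below cardiac bodies. Actn2, the Z-disc actinin, fell just inside it, at 5.16 and 5.18 in embryonic bodies, 5.44 and 5.12 in ES cells and 11.10 and 10.69 in cardiac bodies. Its difference from ES cells did not pass the test (limma adjusted p 0.77). Tnnt2, the cardiac troponin T, stood between its neighbours at 5.99 and 6.29, then 7.26 and 7.66, then 12.87 and 12.61. In the smooth muscle list Acta2, an actin that early cardiac and smooth muscle cells share, read 6.06 and 5.78, then 12.06 and 10.74, then 12.10 and 11.72 and was no peak.

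Of 18 measured germ cell genes, several of which ES cells also express, 10 dipped, 8 of them strictly, against 7.41% and 2.69% of all genes, and 7 were not called. Ddx4, an RNA helicase of germ cells, read 7.22 and 7.28, then 4.60 and 3.98, then 6.19 and 7.65. Tdrd12, which acts in piRNA production, read 9.10 and 9.19, then 5.95 and 5.71, then 8.05 and 7.90. Prdm1, a repressor that specifies germ cells and also acts in endoderm, went the other way, at 5.60 and 5.84, then 7.03 and 7.77, then 5.20 and 4.99.

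Of 18 measured imprinted growth genes 14 peaked, 7 of them strictly, against 10.6% and 5.17% of all genes, and none dipped. Strict peaks were 4 without any 1 of the ES cell arrays, the cardiac body arrays or embryonic bodies replicate 1, and 9 without embryonic bodies replicate 2. Peg3, a zinc finger gene expressed from the paternal allele, read 7.63 and 7.75, then 11.98 and 11.41, then 8.87 and 9.05, with a contrast of 3.37 ± 0.39 (limma adjusted p 7.1e-05). Grb10, an inhibitor of growth factor receptors, read 9.09 and 8.86, then 11.20 in both arrays, then 9.61 and 9.81. Igf2, the fetal growth factor, was a peak only by the weaker rule, since at 11.30 and 11.09 it stayed high in cardiac bodies beside 11.89 and 11.60 in embryonic bodies and 5.79 and 5.88 in ES cells. Dlk1, a non-canonical Notch ligand, read 6.55 and 6.44, then 10.32 and 8.51, then 7.93 and 8.06.

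Rows for microRNAs held 26 strict peaks among 297, or 8.75% of them against 5.17% of all genes, and no strict dip. The array measures RNA over the hairpin region and does not tell a mature strand from its precursor. A microRNA pairs with its targets chiefly through the seed, bases 2 to 8 of the mature strand. A pair of gene clusters gave 17 of the 26, and they were singled out after the values were seen. In the sequences below, from RefSeq (GRCm38.p6) and with a sequence found for each of the 17 rows, the seed is in capitals.

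The cluster that encodes miR-17 and its relatives lies on chromosome 14, from 115043671 to 115044391 for the rows measured here (GRCm38.p6), and its RNAs favour proliferation. Of its 5 measured rows 4 peaked strictly, against 5.17% of all genes. All 5 had both embryonic body arrays above all neighbours, as did every strict peak and 18.4% of all genes. The 4 strands printed here, 1 for each strict row, share 2 seeds, and are shown because rows of both seeds peaked.
miR-17-5p: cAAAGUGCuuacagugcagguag
miR-20a-5p: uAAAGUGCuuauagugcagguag
miR-19a-3p: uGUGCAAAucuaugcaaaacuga
miR-19b-3p: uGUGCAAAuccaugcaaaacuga
Mir20a read 6.89 and 6.73 in ES cells, 7.58 and 8.25 in embryonic bodies and 6.61 and 7.19 in cardiac bodies, a contrast of 1.06 ± 0.21 (limma adjusted p 0.00369). Mir19a read 6.16 and 5.95, then 6.69 and 7.33, then 5.61 and 5.99. Their host transcript Mir17hg, with embryonic bodies at 6.52 and 6.78, was also a strict peak. Near-identical members of this family elsewhere in the genome can share probes. Strict peaks among the 5 rows fell to 0 without embryonic bodies replicate 2 or without cardiac bodies replicate 1, and to 1 without ES cells replicate 2, and the median contrast over the 5 rows was 0.76, 0.98 and 1.02 in these fits beside 1.06 in the full one.

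Outside these clusters 9 of 252 rows peaked strictly (3.57%), a share below the 5.17% of all genes. Among the 9 were these pairs of rows with a shared seed.
miR-15b-5p: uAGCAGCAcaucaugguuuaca
miR-16-5p: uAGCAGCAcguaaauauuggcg
miR-130a-3p: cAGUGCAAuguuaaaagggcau
miR-301a-3p: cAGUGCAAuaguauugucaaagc
Mir15b read 4.23 and 4.09, then 6.29 and 6.18, then 4.31 and 5.24, and its neighbour Mir16-2 on chromosome 3 read 3.46 and 3.38, then 4.77 and 4.86, then 3.79 and 3.92. Mir130a read 2.84 and 3.35, then 4.85 and 5.36, then 3.94 and 4.06. Mir301 read 3.12 and 3.34, then 4.85 and 5.11, then 3.79 and 3.74. In these rows both embryonic body arrays lay above every neighbour, as in all strict peaks. They differed most for Mir130a, at 4.85 and 5.36. Levels were low in many of the 252 rows, of which 103 had a mean below 4 in embryonic bodies.

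The other cluster is the imprinted region between Dlk1 and Dio3 on chromosome 12, whose microRNAs are made from the maternal allele along with the long noncoding RNAs Meg3 and Rian. Of the 40 microRNA rows measured there, 13 peaked strictly, against 5.17% of all genes. With 12 more by the weaker rule, 25 peaked, against 10.6% of all genes, and none dipped. In 28 both embryonic body arrays were above all 4 neighbours, against 18.4% of all genes. The contrast ranged from -0.15 to 1.72 with a median of 0.84, beside -0.01 over all genes. Both long noncoding RNAs were also higher in embryonic bodies. The rows from Mir379 to Mir369 lie beyond the annotated ends of both. Meg3, a strict peak, read 9.52 and 9.78, then 11.34 and 10.13, then 9.43 and 9.48. Rian read 7.35 and 7.25, then 8.52 and 7.73, then 6.33 and 5.88. It peaked only by the weaker rule, and its difference from ES cells, 0.82, was not called (limma adjusted p 0.183).

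No strands of the 13 strict rows share a seed among those matched. The mature strands of the 5 rows with the largest contrasts are shown, with each strand's place on chromosome 12 (plus strand, GRCm38.p6) in the next sentences.
miR-382-5p: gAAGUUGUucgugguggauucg
miR-541-5p: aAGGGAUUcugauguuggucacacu
miR-300-3p: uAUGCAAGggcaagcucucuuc
miR-495-3p: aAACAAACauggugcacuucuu
miR-411-5p: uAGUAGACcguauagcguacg
They lie at chr12:109733781-109733802, chr12:109742422-109742446, chr12:109724363-109724384, chr12:109718795-109718816 and chr12:109710190-109710210. Mir382 read 6.39 and 5.71 in ES cells, 7.95 and 6.68 in embryonic bodies and 4.84 and 5.45 in cardiac bodies, a contrast of 1.72 ± 0.31 (limma adjusted p 0.00191). Mir541 read 3.36 and 3.69, then 5.84 and 4.69, then 3.53 and 3.84. Mir411 read 4.33 and 4.19, then 5.80 and 5.14, then 3.80 and 4.05.

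The size of this peak depended on the first embryonic body array. Replicate 1 was the higher in 37 of the 40 rows, by a median of 0.69. Without replicate 1 the median contrast was 0.36 with 3 strict peaks and 8 peaks in all, and without replicate 2 it was 1.24 with 26 and 28. Strict peaks were 8, 6, 7 and 8 without ES cells replicate 1, ES cells replicate 2, cardiac bodies replicate 1 and cardiac bodies replicate 2. The rows share transcripts and are not independent.

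**Figure D5:**
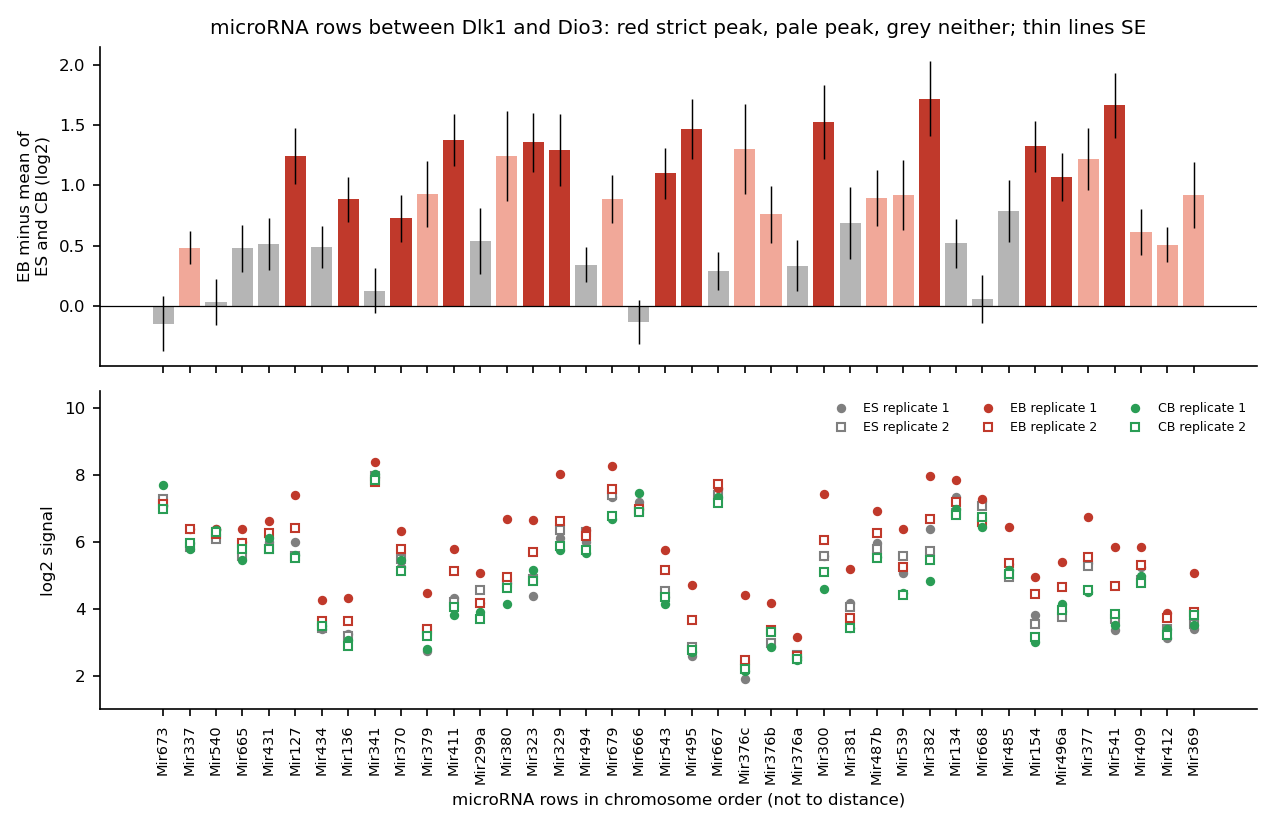
The 40 microRNA rows between Dlk1 and Dio3 in chromosome order. Above, embryonic bodies minus the mean of ES cells and cardiac bodies (log2, thin lines SE; red strict peak, pale red peak, grey neither); below, the log2 signal of each culture array, where filled red points (embryonic bodies replicate 1) lie highest in most rows.

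By position, the X chromosome held the largest share of strict peaks, a comparison chosen after the values were seen. They were 75 of its 742 genes, or 10.1%, against 5.17% of all genes and a range of 2.36% to 9.49% on the autosomes. Of the 24 strict peaks with both differences of at least 3, 6 were X-linked. Among the X-linked strict peaks Amot, a scaffold protein of cell junctions, read 4.82 and 4.88, then 10.20 and 8.61, then 5.38 and 6.11, and Capn6, a calpain-like protein, read 4.58 and 4.66, then 9.79 and 10.43, then 6.71 and 6.45. Hmgb3, a chromatin protein, read 6.91 and 6.99, then 9.72 and 9.94, then 7.68 and 7.45. Strict dips were 20 of the 742, or 2.70%, close to 2.69% overall. Leaving out a culture array gave X shares of 5.66% to 8.36%, with overall shares of 2.58% to 4.19% in the same fits.

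Of 23 mitosis genes 1 peaked, not strictly, and none dipped, against 10.6% and 7.41% of all genes. None of 17 ribosomal protein genes was called either way, against the same shares. The median contrasts of these lists were 0.01 and -0.03. Of 24 DNA replication genes 2 peaked, against 10.6% of all genes, of which Ccne2 was strict. Another 4 dipped, against 7.41% of all genes, of which Ccne1 and Mcm10 were strict. The E-type cyclins thus moved apart, Ccne1 reading 10.36 and 10.79, then 8.30 and 8.37, then 9.32 and 9.40, and Ccne2 6.42 and 6.62, then 7.39 in both, then 5.63 and 5.89. Of 21 neural genes 2 peaked and 4 dipped, against 10.6% and 7.41% of all genes; Sox11 was the strict peak and Tubb3 the strict dip, and Pax6 was not called. Afp, the fetal serum protein of yolk sac and liver, was high in cardiac bodies among the culture groups, at 5.10 and 4.65, then 5.34 and 4.83, then 10.08 and 9.97. None of 15 macrophage markers peaked, against 10.6% of all genes, and 2 dipped, against 7.41%.

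The hearts give a readout that the choice of peaks and dips did not use, apart from the pooled spread of the fit. Over all genes 3600 were higher in adult than in E17.5 hearts (18.1%) and 3588 lower (18.0%), with a median difference of 0.05 (limma, adjusted p under 0.05). Of the 1029 strict peaks 360 were lower in adult hearts (35.0%) and 153 higher (14.9%), with a median difference of -0.25. Of the 536 strict dips 151 were higher (28.2%) and 75 lower (14.0%), with a median of 0.19. Genes that peaked at day 7 in culture thus more often fell than rose between the fetal and the adult heart, and genes that dipped more often rose. Between E17.5 and postnatal day 1 the medians were -0.10 for strict peaks and 0.11 for strict dips, beside 0.01 for all genes. The imprinted list had a median difference of -2.05 from E17.5 to adult, against 0.12 for the mesenchyme list and 0.15 for the endothelial list.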

How the data were processed

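Total RNA of 12 samples was hybridised to mouse gene arrays after ribosomal RNA reduction and whole transcript amplification, per the labels' protocols. The authors deposited log2 signals made with RMA in Affymetrix Power Tools, per the submitters' processing notes, with versions not given in the sources used here. Of 35556 transcript clusters 21789 had 1 gene symbol, 1621 several and 12146 none. Clusters with 1 symbol gave 19920 genes; 1015 genes had more than 1 cluster, and the one with the highest mean signal over the arrays was used. A further set of 241576 exon-level probe sets served as an alternative.

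A model with 6 group means was fitted over the 12 gene-level arrays with limma 3.58.1 (R 4.3.3; 6 residual and 6.18 prior degrees of freedom), and p-values were adjusted over all genes by Benjamini-Hochberg with a threshold of 0.05. No filter on low values was set. The scripts were tested on simulated data. The number of arrays limits the precision.

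Genes were named by rule: the 12 strict peaks and 12 strict dips with the largest smaller difference, up to 5 strict members of each of 33 lists (715 of 768 entries measured), and a set of lineage genes, of which Brachyury (T) could not be matched to a tested gene. For the 12 in each direction both embryonic body arrays had to lie outside all 4 neighbour arrays. All 1029 strict peaks and 536 strict dips met this. Other list members, microRNA rows, Hox genes and X-linked genes were chosen after their values were seen. The lists and the comparison itself were chosen with earlier results of these data known. Counts by list, by microRNA cluster and on the X chromosome without single arrays were added after seeing the data.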

Additional observations from a re-analysis of the deposited data

How the results depend on the processing

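Over 15 pairs of groups the correlation of replicate deviations ran from -0.18 to 0.29. It exceeded 0.1 in 2 pairs, ES cells with cardiac bodies (0.17) and E17.5 with postnatal day 1 hearts (0.29). In 4 pairs it was below -0.1. With 1 deviation per group, these values cannot decide whether replicate numbers paired some of the samples. With the replicate number as a block there were 2045 peaks, 1414 dips, 955 strict peaks and 512 strict dips. The median of exon-level probe sets, available for 15084 genes, gave 1405 peaks, 589 strict peaks and 347 strict dips, and requiring a contrast of at least 1 left 959 peaks and 580 dips. Leaving out 1 array in turn gave 1528 to 2687 peaks, 900 to 1836 dips, 513 to 1440 strict peaks and 334 to 677 strict dips. Quantile normalization gave 1800 peaks and 1707 dips, which moved the share of peaks among both from 58.9% to 51.3%, and shifted the median contrast of all genes from -0.01 to -0.03. The heart medians ranged from -0.27 to -0.25 for strict peaks and from 0.13 to 0.24 for strict dips over quantile normalization and the left-out heart arrays. Over 2517 combinations of a named gene and an alternative, none reversed, 24 lost the call and 7 gained it; 10 of the losses came without embryonic bodies replicate 1 and 7 without replicate 2. These calls are those of the contrast alone. Further named genes kept that call but lost the strict class, which needs both single differences, when a single array was left out. The cause of these changes was not tested.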

Other observations

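In the 6 culture arrays the Y-linked genes Eif2s3y, Kdm5d and Uty read between 2.99 and 3.83 on the log2 scale, against 5.85 to 8.48 in the 6 heart arrays. Xist read between 3.31 and 4.31 in all 12 arrays. Chromosome 12, which holds the imprinted microRNA region, had the highest autosomal share of strict peaks, 62 of 653 genes (9.49%), and among its protein-coding genes 46 of 558 were strict peaks. Chromosome 1 followed with 97 of 1126 (8.61%), and chromosome 19 had the lowest share, 16 of 678 (2.36%).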
